A study of Mus musculus with 6 samples.

Results

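The expression of 10 transcription factor genes of urothelial differentiation, *Trp63*, *Pparg*, *Grhl1*, *Grhl2*, *Grhl3*, *Elf3*, *Elf5*, *Klf5*, *Gata3* and *Hopx*, was examined in embryonic ureters whose WNT pathway had been activated. The genes were chosen by name, with earlier results of these data known, and found by symbol among the 56748 genes of the count table. All 10 passed the filter on low counts, as did 18188 genes in total. RNA-Seq had been performed on whole ureters of wildtype embryos of the NMRI mouse strain, isolated at E12.5 (embryonic day), explanted on transwell membranes and cultured for 18 h. The LiCl group (n = 3) received 15 mM lithium chloride, a salt that inhibits the kinase GSK3B and thereby stabilizes the WNT effector β-catenin, and the control group (n = 3) received water. The ureter at this stage is an epithelial tube within mesenchyme, and both tissues contributed RNA to every sample. Lithium reaches both tissues and also inhibits enzymes other than GSK3B. How many ureters made up a sample was not given in the sources used here, so p-values measure the spread between these samples, which may in part be technical.

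The urothelium, the stratified lining of the ureter and bladder, arises from the simple epithelium of the ureteric bud, and consists of basal, intermediate and superficial cells when mature. P63, encoded by *Trp63*, marks basal and intermediate cells, whereas the nuclear receptor PPARG, the Grainyhead-like factor GRHL3, the ETS factor ELF3, KLF5 and GATA3 are known to promote urothelial differentiation, which ends in superficial cells that carry uroplakins. At E12.5 the ureteric epithelium is still a simple layer, hence the assay captured these factors well before the mature cell types are present.

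The total count per sample ranged from 28473436 to 31266945. As a readout of the treatment, 7 of 8 commonly used WNT target genes rose, with *Notum*, which encodes a secreted WNT inhibitor, at 20.9 ± 2.53 CPM in control and 85.3 ± 13.4 CPM after LiCl (mean ± SD, n = 3). CPM are counts divided by the TMM-adjusted depth of the sample. Of 8 genes of the ureteric tip and collecting duct, the markers of collecting duct cell types were close to absent. *Aqp2* had at most 1 count, and *Foxi1* and *Atp6v1b1* at most 4, in any sample. The other 5 were detected, with control means of 51.4 CPM for *Ret*, 28.4 for *Wnt9b*, 26.8 for *Hoxb7*, 15.9 for *Wnt11* and 0.93 for *Calb1*. Of 6 epidermal genes, *Krt10*, *Krt1* and *Lor* were detected in every sample and *Flg* had 0 counts throughout, with a summed CPM of 16.4 to 18.2 in control and 14.4 to 15.3 after LiCl. The summed CPM of 6 skeletal muscle genes, of which 4 were tested, was 25.1 and 54.6 in LiCl 1 and LiCl 3, compared with 2.68 in LiCl 2 and 1.25 to 3.45 in the controls. Values without LiCl 1 and LiCl 3 are given for the members whose test they change.

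All 10 genes had a lower fitted expression after LiCl, and 8 of them fell at an adjusted p under 0.05 (edgeR quasi-likelihood test, Benjamini-Hochberg adjustment over all tested genes). None rose, also with DESeq2. In the same direction, 22.4% of all tested genes passed this test, and 51.5% had a log2 fold change below 0. Since the 10 genes were chosen with earlier results of these data known, such shares describe them and are no test of the set. *Pparg* and *Elf5* also fell by more than 1 on the log2 scale and were called lower, compared with 4.59% of all tested genes. None of the 10 genes was called higher, compared with 2.74% of all. In 8 of the 10 genes every LiCl sample lay below every control, a pattern seen in 27.8% of all tested genes (26.4% had the reverse order), and the groups overlapped for *Grhl1* and *Elf3*. The median log2 fold change was -0.53 over the 10 genes and -0.01 over all tested genes. In descending order of the change, the LiCl mean was 37.1% of the control mean for *Pparg*, 42.1% for *Elf5*, 54.4% for *Grhl3*, 55.6% for *Hopx*, 60.6% for *Trp63*, 79.2% for *Grhl1*, 81.2% for *Grhl2*, 84.1% for *Klf5*, 88.2% for *Gata3* and 97.9% for *Elf3*. In bulk RNA, fewer cells of a type and less RNA per cell cannot be told apart.

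**Figure D1:**
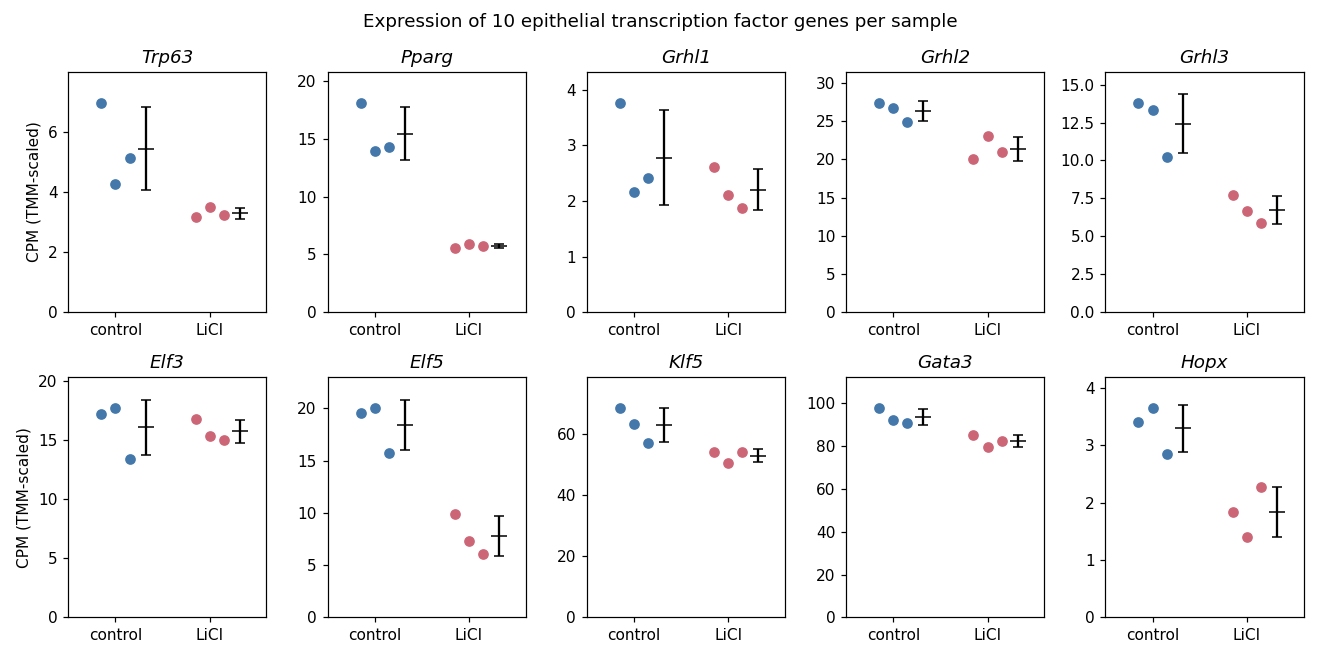
Expression of the 10 transcription factor genes in each of the 6 samples, in CPM, with a separate vertical axis for each gene, points for control and LiCl samples and bars for the group means. All LiCl points lie below all control points in every panel except those of *Grhl1* and *Elf3*.

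The levels of the factors were compared per transcript length, using the deposited FPKM (fragments scaled by gene length and sequencing depth). Controls had been cultured for the same time as the LiCl explants, so their levels are not those before treatment. In control ureters *Gata3*, which encodes a zinc finger factor, had the highest level with 23.3 ± 0.74 FPKM, followed by *Klf5*, encoding a Krüppel-like factor, with 11.98 ± 1.02 FPKM. *Elf3* with 7.17 ± 1.05 FPKM, *Pparg* with 5.17 ± 0.73 FPKM and *Grhl3* with 4.41 ± 0.68 FPKM came next, and neighbours among these 3 overlapped in their samples. *Elf5* with 3.10 ± 0.40 FPKM and *Grhl2* with 3.02 ± 0.14 FPKM were not separated from each other and lay above *Hopx*, a homeodomain-only factor, with 2.15 ± 0.27 FPKM. *Trp63* with 0.64 ± 0.16 FPKM and *Grhl1* with 0.50 ± 0.15 FPKM formed the bottom of the order and also overlapped.

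After LiCl the upper end of the order was kept, with *Gata3* at 20.8 ± 0.72 FPKM, *Klf5* at 10.2 ± 0.42 FPKM and *Elf3* at 7.11 ± 0.43 FPKM. Changes in rank occurred below *Elf3*. *Pparg*, the next gene in control, dropped to 1.94 ± 0.062 FPKM and lay below *Grhl2* with 2.48 ± 0.18 FPKM and *Grhl3* with 2.42 ± 0.33 FPKM, whose samples overlapped with each other. *Elf5* with 1.32 ± 0.33 FPKM and *Hopx* with 1.21 ± 0.29 FPKM followed and overlapped, and *Grhl1* with 0.40 ± 0.067 FPKM and *Trp63* with 0.39 ± 0.022 FPKM again stood last without separation.

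**Figure D2:**
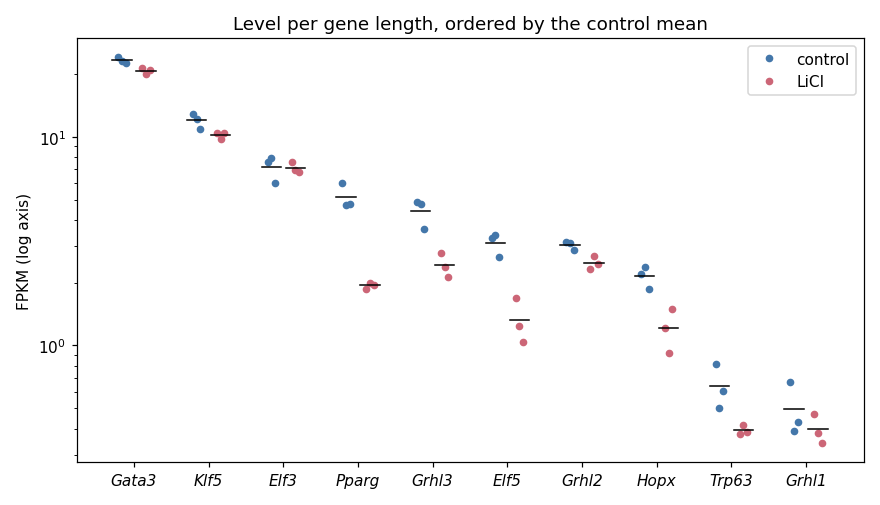
Expression level per transcript length (FPKM, logarithmic axis) of the 10 genes, ordered by the control mean, with a point for each sample. *Gata3*, *Klf5* and *Elf3* lead in both groups, while *Pparg* moves from 5.17 FPKM in control to 1.94 FPKM after LiCl, below *Grhl2* and *Grhl3*.

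*Trp63* (ENSMUSG00000022510), the basal cell factor, had 200, 132 and 157 counts in the control samples, and 98, 98 and 91 counts after LiCl. In CPM these were 6.96, 4.25 and 5.12 in control and 3.15, 3.51 and 3.23 after LiCl. The LiCl samples were tightly grouped below the controls, of which control 1 stood apart at the top. The log2 fold change was -0.72 (SE 0.19, 95% confidence interval -1.15 to -0.30, adjusted p = 0.013 in edgeR). It was -0.51 without control 1, and the adjusted p was 0.16 with LiCl 1 and LiCl 3 left out and 0.086 to 0.12 in limma on FPKM. Control 1 also had the lowest summed CPM of Y-linked genes, 108.9 against 180.3 to 247.3 in the other samples. With Y-linked expression as a covariate the adjusted p was 0.054 for *Trp63*, 0.056 for *Klf5* and 0.073 for *Gata3*. Of 13 genes known as targets of P63, mainly of basal epithelial cells, 6 fell and 1 rose, with a median log2 fold change of -0.22, where 22.4% of all tested genes fell and 21.1% rose. *Fras1*, which encodes a protein of the epithelial basement membrane, fell by 1.28 on the log2 scale, from 192 ± 50.6 CPM to 79.4 ± 20.04 CPM (adjusted p = 0.0010). *Dsc3*, which encodes a desmosomal cadherin, rose by 1.495 on that scale from a low level, with 1.01, 0.87 and 1.08 CPM in control and 3.35, 2.33 and 2.66 CPM after LiCl (adjusted p = 5.9e-04).

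*Pparg* (ENSMUSG00000000440), a lipid-activated nuclear receptor, had the largest change of the 10 genes. The counts were 520, 434 and 437 in control and 172, 165 and 162 after LiCl, which gave 18.1, 14.0 and 14.3 CPM against 5.53, 5.91 and 5.75 CPM. The highest LiCl value was far below the lowest control value. The log2 fold change was -1.43 (SE 0.12, 95% confidence interval -1.70 to -1.16, adjusted p = 2.7e-05), a 2.70-fold lower mean, and it ranged from -1.49 to -1.30 when each sample was left out in turn. Of 11 tested target genes of PPARs, 7 fell and none rose, with a median log2 fold change of -0.46. Among them were *Fabp4*, which encodes a fatty acid binding protein, with 8.63, 7.25 and 7.93 CPM in control and 1.93, 0.75 and 0.85 CPM after LiCl (log2 fold change -2.73, adjusted p = 8.6e-05), and *Lpl*, encoding lipoprotein lipase, with 66.7 ± 15.6 CPM in control and 23.8 ± 3.02 CPM after LiCl (log2 fold change -1.49, adjusted p = 1.1e-04). Both genes are also expressed outside the epithelium, *Fabp4* in endothelium and macrophages for instance. The log2 fold changes of 5 endothelial genes lay between -0.30 and 0.14 (adjusted p from 0.052 to 0.89), whereas 3 of 6 macrophage genes fell and 1 rose, and their part in the change of *Fabp4* was not tested.

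The 3 Grainyhead-like genes, *Grhl1*, *Grhl2* and *Grhl3*, encode related factors that bind the same DNA motif and are known for the regulation of epithelial junctions and barriers. *Grhl2* (ENSMUSG00000022286) had 787, 830 and 762 counts in control and 622, 646 and 592 counts after LiCl, or 27.4, 26.7 and 24.9 CPM against 20.01, 23.1 and 21.0 CPM. The groups were separated by a narrow margin, and the log2 fold change was -0.30 (SE 0.073, 95% confidence interval -0.47 to -0.14, adjusted p = 0.0093). With LiCl 1 and LiCl 3 left out it was -0.18 (adjusted p = 0.25). *Grhl3* (ENSMUSG00000037188), the member that is required for superficial cells of the bladder, had 396, 413 and 313 counts in control and 240, 186 and 166 counts after LiCl. Its 13.8, 13.3 and 10.2 CPM in control and 7.72, 6.66 and 5.89 CPM after LiCl did not overlap, with a log2 fold change of -0.88 (SE 0.15, 95% confidence interval -1.20 to -0.55, adjusted p = 0.0012). *Grhl1* (ENSMUSG00000020656) was the lowest of the family, with 108, 67 and 74 counts in control and 81, 59 and 53 counts after LiCl. Its 3.76, 2.16 and 2.42 CPM in control overlapped with 2.61, 2.11 and 1.88 CPM after LiCl, and the log2 fold change of -0.33 (SE 0.24, 95% confidence interval -0.88 to 0.22, adjusted p = 0.30) did not pass the test. Without control 1, the highest sample, it was -0.05. At these counts the interval for *Grhl1* includes both no change and the fitted change of *Grhl2*, and its lower end is close to the fitted change of *Grhl3*.

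To compare the family members with each other, the log2 ratio of their CPM (with 0.5 added) was formed within each sample, and the groups were compared by a two-sided exact permutation test, which cannot go below p = 0.1 with 3 samples against 3. The log2 ratio of *Grhl3* to *Grhl2* was -0.97, -0.98 and -1.24 in control and -1.32, -1.72 and -1.75 after LiCl. All LiCl ratios lay below all controls, with a difference of -0.53 (exact p = 0.1, adjusted p = 0.13 over 4 pairs). The log2 ratio of *Grhl3* to *Grhl1* was 1.75, 2.38 and 1.88 in control and 1.40, 1.45 and 1.42 after LiCl, again without overlap, and differed by -0.57 (exact p = 0.1, adjusted p = 0.13). For *Grhl2* to *Grhl1* the log2 ratios of 2.71, 3.36 and 3.12 in control and 2.72, 3.18 and 3.18 after LiCl overlapped, with a difference of -0.04 (exact p = 1). As a share of the summed FPKM of the family, *Grhl3* accounted for 55.4 ± 2.72% in control and 45.6 ± 3.64% after LiCl, *Grhl2* for 38.3 ± 2.68% and 47.0 ± 4.50%, and *Grhl1* for 6.22 ± 1.498% and 7.46 ± 0.86%. The summed FPKM of the 3 genes was 7.93 ± 0.90 in control and 5.31 ± 0.35 after LiCl. Of 10 tested genes known as targets of Grainyhead-like factors, 4 fell and 2 rose, and none was called. *Cdh1*, the E-cadherin gene, fell by 0.99 on the log2 scale from 289 ± 28.2 CPM to 146 ± 4.51 CPM (adjusted p = 8.5e-06), and the tight junction gene *Cldn4* fell by 0.78 from 167 ± 9.64 CPM to 97.6 ± 0.65 CPM (adjusted p = 6.5e-06). In contrast, *Epcam*, which encodes an epithelial adhesion protein, rose by 0.37 from 127, 132 and 115 CPM to 162, 162 and 161 CPM (adjusted p = 6.7e-04).

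*Elf3* and *Elf5* encode ETS factors of epithelia and had the largest difference of the 4 pairs compared. *Elf5* (ENSMUSG00000027186), a factor known from the mammary gland, had 562, 621 and 481 counts in control and 307, 204 and 172 counts after LiCl. In CPM the controls had 19.5, 20.003 and 15.7 and the LiCl samples 9.88, 7.30 and 6.10, so that the groups were well apart. The log2 fold change was -1.24 (SE 0.17, 95% confidence interval -1.62 to -0.86, adjusted p = 4.0e-04), and it ranged from -1.46 to -1.09 when each sample was left out in turn. The paper's microarrays went the other way in mutant ureters that lack mesenchymal β-catenin, at a later stage. There *Elf5* was among the transcription factor genes with increased expression. The paper's in situ hybridization did not reliably detect *Elf5* in control or mutant ureters. *Elf3* (ENSMUSG00000003051), which acts downstream of PPARG in urothelial cells, had 494, 549 and 410 counts in control and 523, 430 and 423 counts after LiCl. The 16.8, 15.4 and 15.0 CPM after LiCl lay within the range of the controls, which had 17.2, 17.7 and 13.4 CPM, and the log2 fold change was -0.03 (SE 0.11, 95% confidence interval -0.28 to 0.22, adjusted p = 0.85). The log2 ratio of *Elf5* to *Elf3* was 0.18, 0.17 and 0.22 in control and -0.74, -1.03 and -1.23 after LiCl, a difference of -1.19 (exact p = 0.1, the smallest this design allows, adjusted p = 0.13). Per transcript length, *Elf5* made up 30.0, 29.9 and 30.7% of the FPKM of the pair in the controls and 18.1, 15.2 and 13.3% after LiCl. The controls were nearly identical in this share, although the summed FPKM of the pair varied among them (10.3 ± 1.45).

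**Figure D3:**
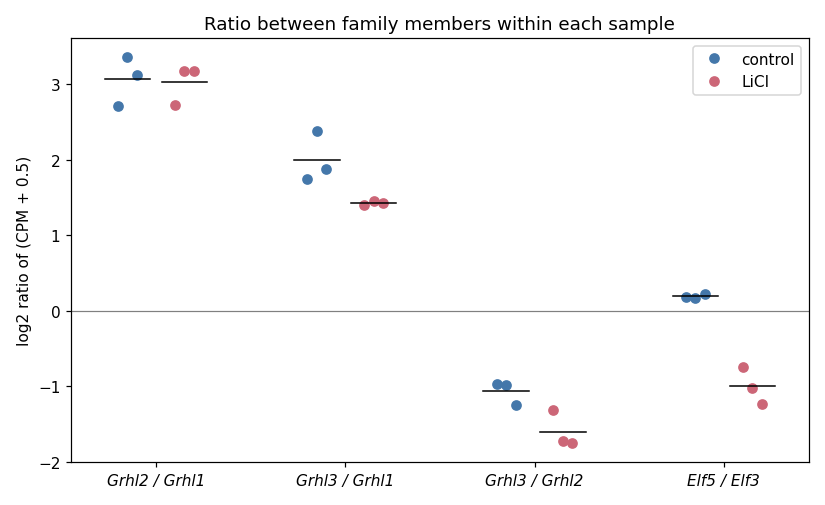
Log2 ratio of CPM (with 0.5 added) between members of a family in each sample, for 3 pairs of Grainyhead-like genes and for *Elf5* against *Elf3*. The *Elf5* to *Elf3* ratio lies between 0.17 and 0.22 in control and between -1.23 and -0.74 after LiCl, whereas the *Grhl2* to *Grhl1* ratios of both groups overlap.

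Sequences upstream of the transcription start are shown for *Pparg*, *Elf5* and *Grhl3*, the members with the largest changes, and for *Elf3*, the relative of *Elf5* that did not pass the test. They are the 250 bases before a RefSeq start on GRCm38.p6, 5′ to 3′ on the strand of the gene, and this build differs from GRCm39, on which the reads had been counted. Capitals mark the core motif of TCF/LEF factors, the DNA-binding partners of β-catenin (CTTTGA, or TCAAAG on the opposite strand). For *Elf5* the start with a match is shown, and its first start had none. None of the starts of *Pparg* had a match.
*Pparg*, first start (chr6:115360894-115361143, plus strand): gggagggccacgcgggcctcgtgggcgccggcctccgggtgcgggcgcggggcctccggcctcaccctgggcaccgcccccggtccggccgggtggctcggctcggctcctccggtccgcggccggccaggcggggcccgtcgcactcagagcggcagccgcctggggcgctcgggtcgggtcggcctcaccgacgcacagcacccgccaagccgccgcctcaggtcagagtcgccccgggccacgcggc
*Elf5*, second start (chr2:103423818-103424067, plus strand): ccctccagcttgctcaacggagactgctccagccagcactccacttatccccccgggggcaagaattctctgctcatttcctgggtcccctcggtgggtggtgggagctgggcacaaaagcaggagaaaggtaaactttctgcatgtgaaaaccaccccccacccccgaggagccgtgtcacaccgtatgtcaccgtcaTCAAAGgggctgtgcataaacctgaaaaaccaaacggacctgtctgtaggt
*Grhl3* (chr4:135573633-135573882, minus strand): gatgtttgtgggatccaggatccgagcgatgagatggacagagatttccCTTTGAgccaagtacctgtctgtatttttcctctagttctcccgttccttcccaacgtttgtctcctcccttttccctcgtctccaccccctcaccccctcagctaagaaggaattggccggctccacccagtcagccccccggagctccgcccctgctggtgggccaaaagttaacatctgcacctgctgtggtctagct
*Elf3* (chr1:135258473-135258722, minus strand): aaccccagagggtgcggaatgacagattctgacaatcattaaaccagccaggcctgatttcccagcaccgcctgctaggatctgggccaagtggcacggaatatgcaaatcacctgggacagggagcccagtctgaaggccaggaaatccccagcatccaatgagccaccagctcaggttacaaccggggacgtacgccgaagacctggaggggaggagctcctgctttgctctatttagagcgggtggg
The table of 32851 promoters, each from 250 bases before to 50 bases after a start, held 12 promoters of 7 of the 10 genes, and none for *Trp63*, *Grhl2* and *Klf5*. The TCF/LEF core motif was found in 2 of the 12, at 201 bases before the start of *Grhl3* and at 51 bases before the second start of *Elf5*, and in 16% of all promoters. The Grainyhead-like motif (AACCNGTT or AACNGGTT) was in none of the 12 and in 2.09% of all promoters, and the GATA motif (AGATAA or TTATCT) in none of the 12 and in 11.2% of all. These are matches of letters in short windows, and which start is used in the ureter was not analysed here.

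*Klf5* (ENSMUSG00000005148) and *Gata3* (ENSMUSG00000015619), both needed for urothelial maturation, were the most abundant of the 10 genes and differed little between the groups. *Klf5* had 68.4, 63.4 and 57.2 CPM in control and 54.1, 50.6 and 54.2 CPM after LiCl, without overlap but with a gap smaller than the spread of the controls. Its log2 fold change was -0.25 (SE 0.070, 95% confidence interval -0.41 to -0.09, adjusted p = 0.017). *Gata3*, which is also expressed in sympathetic neurons, had 97.6, 92.2 and 91.0 CPM in control and 85.4, 79.8 and 82.4 CPM after LiCl, with a log2 fold change of -0.18 (SE 0.050, 95% confidence interval -0.29 to -0.07, adjusted p = 0.017). The adjusted p was 0.053 for both genes without control 1, 0.059 for *Klf5* and 0.060 for *Gata3* without LiCl 2, and 0.063 for *Gata3* without LiCl 3. It was 0.075 for *Klf5* and 0.089 for *Gata3* with LiCl 1 and LiCl 3 both left out. Of 7 sympathetic and neural crest genes, 2 fell and none rose, with summed CPM of 215 to 256 in control and 124 to 189 after LiCl. Among them *Dbh*, which encodes the enzyme that makes noradrenaline, fell by 1.65 on the log2 scale (adjusted p = 1.9e-04). Their part in the change of *Gata3* was not tested.

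*Hopx* (ENSMUSG00000059325), encoding a small homeodomain protein that does not bind DNA by itself, was low in all samples, with 98, 113 and 87 counts in control and 57, 39 and 64 counts after LiCl. The 3.41, 3.64 and 2.84 CPM in control lay above the 1.83, 1.40 and 2.27 CPM after LiCl, and the log2 fold change was -0.84 (SE 0.21, 95% confidence interval -1.31 to -0.37, adjusted p = 0.0098). The paper's in situ hybridization found *Hopx* RNA in the ureteric mesenchyme of control embryos at E14.5, so that its RNA here need not come from the epithelium. Without LiCl 3, the highest of its group, the log2 fold change was -1.02 and *Hopx* was called lower. *Hopxos*, a transcript on the opposite strand, shares 27.2% of the exon bases of *Hopx* in GENCODE vM21, but had at most 9 counts in any sample. Whether the counting used strand was not given in the sources used here.

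**Figure D4:**
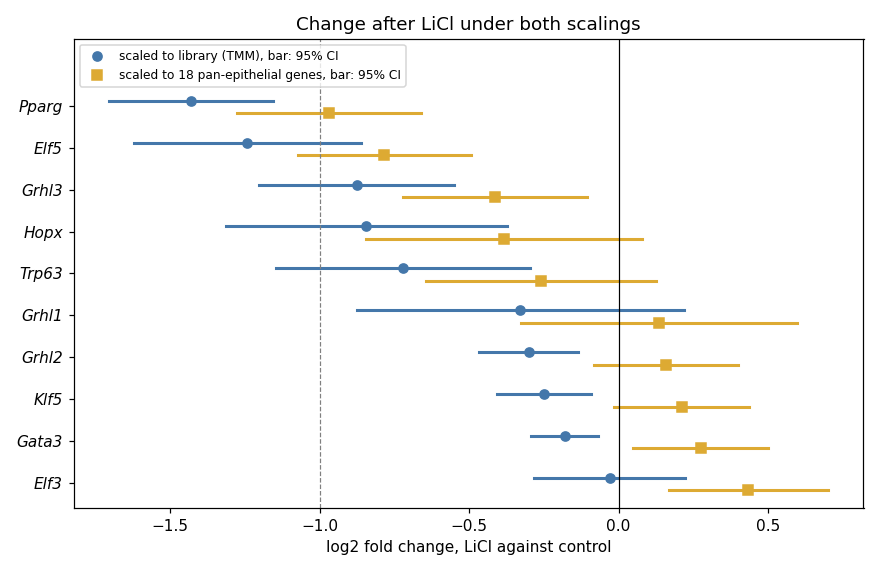
Log2 fold change of LiCl against control for the 10 genes after TMM normalization and after scaling by 18 pan-epithelial genes, with 95% confidence intervals, ordered by the TMM value. After TMM normalization all 10 values are below 0, and after scaling by epithelial genes *Pparg*, *Elf5* and *Grhl3* remain below 0 with their intervals, while *Elf3* and *Gata3* lie above 0.

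Because most of the factors are known from epithelia and the tissue is mixed, 18 genes of epithelia in general were examined beside them. Of these, 10 fell and 1 rose, with a median log2 fold change of -0.29 and summed CPM of 1670 to 2021 in control and 1338 to 1389 after LiCl. *Esrp2*, encoding an epithelial splicing factor, fell by 1.33 on the log2 scale (adjusted p = 8.5e-06), and *Krt19*, encoding a keratin of simple epithelia, fell by 1.20 (adjusted p = 7.8e-05). When the samples were scaled by the sum of these genes instead of TMM, the median change over the 18188 genes moved to 0.44 on the log2 scale, and 5.57% of them fell at an adjusted p under 0.05 whereas 58.4% rose. None of the 10 genes was called lower on this scale, compared with 1.78% of all tested genes. Here *Pparg* still fell, with a log2 fold change of -0.97 (95% confidence interval -1.28 to -0.66), as did *Elf5* with -0.78 (-1.07 to -0.49) and *Grhl3* with -0.41 (-0.72 to -0.10, adjusted p = 0.016). *Hopx* with -0.38 (adjusted p = 0.14), *Trp63* with -0.26 (adjusted p = 0.24), *Grhl1* with 0.13 (adjusted p = 0.63), *Grhl2* with 0.16 (adjusted p = 0.25) and *Klf5* with 0.21 (adjusted p = 0.099) did not pass the test. *Gata3* with 0.27 (adjusted p = 0.029) and *Elf3* with 0.43 (adjusted p = 0.0029) had positive values past the test, each by no more than the median of all genes on this scale. Per 1000 CPM of pan-epithelial genes, *Pparg* was at 8.95, 7.29 and 8.54 in control and 3.98, 4.38 and 4.30 after LiCl, *Elf5* at 9.67, 10.4 and 9.40 against 7.11, 5.42 and 4.56, and *Elf3* at 8.50, 9.22 and 8.01 against 12.1, 11.4 and 11.2. The fit on this scale pooled the spread strongly over genes, and its adjusted p-values may be too small and its intervals too narrow. The sum is weighted towards its most abundant genes, *Krt8*, *Cdh1*, *Krt18* and *Cldn4*, with control means of 318, 289, 213 and 167 CPM. Their log2 fold changes of -0.59, -0.99, -0.65 and -0.78 lay below the median of the list, and the values on this scale depend on them. The scaling genes themselves moved unevenly and include targets of Grainyhead-like factors, so that this scale is no measure of the number of epithelial cells.

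Paralogs of the 10 factors from the same gene families were examined to compare the members with their relatives. Of 21 tested relatives, 7 fell and 5 rose, with a median log2 fold change of -0.08. *Ehf*, an ETS gene close to *Elf3* and *Elf5*, fell by 1.31 on the log2 scale, from 24.9 CPM to 9.99 CPM (adjusted p = 1.6e-04), and *Tfcp2l1*, a relative of the Grainyhead-like genes, fell by 1.06, from 289 CPM to 138 CPM (adjusted p = 2.4e-06). *Klf2*, a Krüppel-like gene known from endothelium, rose by 1.23, from 6.05 CPM to 14.2 CPM (adjusted p = 9.7e-05). Thus among the ETS genes examined *Elf5* and *Ehf* were called lower, and *Elf1* fell by 0.29 (adjusted p = 0.0045 in edgeR). *Elf3*, *Elf2* and *Elf4* did not pass the test. Among 20 other transcription factor genes of epithelia, 7 fell and 3 rose, with a median of -0.05. Besides *Ehf*, 2 forkhead genes were called lower. *Foxq1* had a log2 fold change of -3.24 (adjusted p = 1.9e-06) and *Foxa1* of -1.76 (adjusted p = 2.9e-06).

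Superficial cell genes, which mark the end of the differentiation that several of these factors promote, were at a low level at this stage. Of 7 such genes 6 fell and none rose, and 4 were called lower, with a median log2 fold change of -1.40. *Upk1b*, encoding a uroplakin, had 17.3, 17.8 and 8.75 CPM in control and 3.99, 3.79 and 3.51 CPM after LiCl (log2 fold change -1.95, adjusted p = 3.1e-04). The uroplakin genes *Upk2*, *Upk3a* and *Upk1a* fell by 1.67, 1.42 and 1.40 (adjusted p = 4.0e-04, 0.0060 and 9.7e-05). The summed CPM of all 7 genes was 33.9 to 51.2 in control and 15.8 to 18.5 after LiCl.

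**Figure D5:**
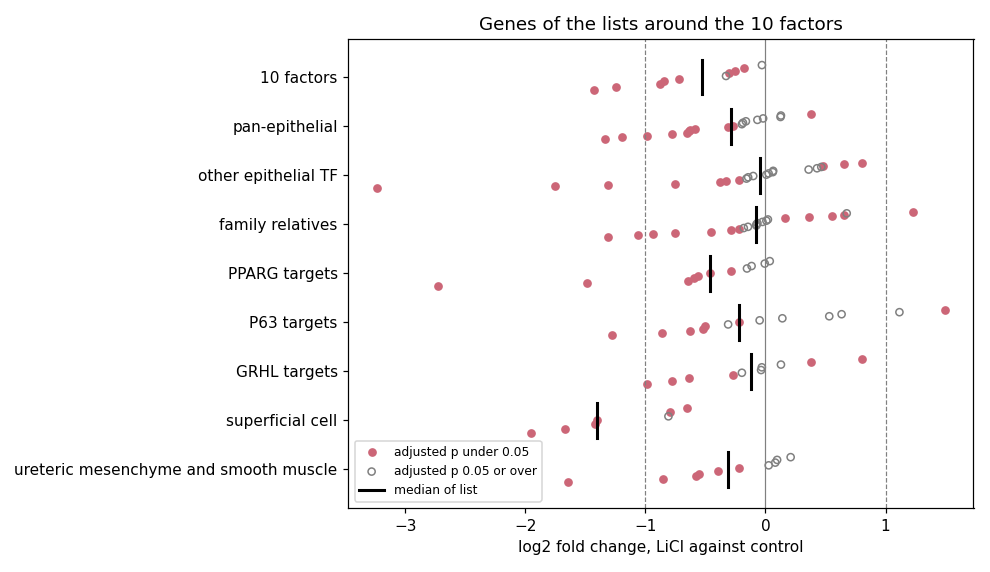
Log2 fold change of LiCl against control for each tested gene of some of the gene lists named in the text, with a line at the median of each list. Drawn are the 10 factors, their family relatives, other epithelial transcription factors and pan-epithelial genes. Targets of PPARs, P63 and Grainyhead-like factors, superficial cell genes, and genes of ureteric mesenchyme and smooth muscle are drawn as well. The superficial cell genes have a median of -1.40 and the 10 factors of -0.53. The medians over all tested genes (-0.01) and for the WNT readout (0.94) are not drawn.

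Markers of some other cell types of the explant moved as well, while none of 5 endothelial genes fell or rose. Of 10 genes of ureteric mesenchyme and smooth muscle 6 fell and none rose, with a median log2 fold change of -0.31 and summed CPM of 4309 to 4922 in control and 3211 to 3573 after LiCl, and *Dcn*, encoding the matrix proteoglycan decorin, fell by 1.64 on the log2 scale (adjusted p = 9.3e-06). The collagen gene *Col1a1*, with a control mean of 2614 CPM, made up much of this sum. *Foxf1*, *Ptch1*, *Myocd* and *Tagln* did not pass the test, with log2 fold changes of 0.08, 0.10, 0.03 and 0.21. Of 5 tested genes of the ureteric tip and collecting duct 3 fell, and *Calb1*, encoding a calcium binding protein of the collecting duct lineage, rose by 1.99 (adjusted p = 1.6e-04). Among the macrophage genes *Cx3cr1*, encoding a chemokine receptor, fell by 1.24 (adjusted p = 0.0032). Of 3 tested epidermal genes, *Krt1*, a keratin gene of differentiating layers, fell by 0.80 (adjusted p = 0.0039), while *Krt10* was at 10.4 ± 0.64 CPM in control and 10.1 ± 0.35 CPM after LiCl and the cornified envelope gene *Lor* at 3.22 ± 0.35 and 2.36 ± 0.39 CPM. All 4 tested skeletal muscle genes were called higher, with a median of 3.23, owing to the levels in LiCl 1 and LiCl 3 given above. With these samples left out, LiCl 2 was fitted against the controls, and the lone sample is assumed to vary like the others. The log2 fold change was then -1.38 for *Pparg*, -1.33 for *Elf5*, -1.23 for *Hopx* and -0.05 for *Elf3*.

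For both called factors the tested genes with the most similar profile over the 6 samples were searched, measured as the root mean square difference of log2(CPM + 0.5) after subtraction of each gene's control mean. Closest to *Pparg* were *Wipi1*, an autophagy gene, with a difference of 0.085, *Hmgcs1*, encoding an enzyme of cholesterol synthesis, with 0.091, and the receptor gene *Egfr* with 0.095. *Hmgcs1* had 289.6, 262 and 237 CPM in control and 106, 109 and 112 CPM after LiCl. Closest to *Elf5* were *Msln*, encoding mesothelin, with 0.0625, *Atp6v0a4*, encoding a subunit of a proton pump, with 0.093, and *Tm7sf2*, encoding an enzyme of cholesterol synthesis, with 0.094. *Tm7sf2* had 26.1, 28.1 and 23.7 CPM in control and 12.4, 10.8 and 9.08 CPM after LiCl. These likenesses are descriptions over 6 samples from a single contrast.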

How the data were processed

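RNA-Seq was analysed for E12.5 ureter explants cultured with LiCl or water, 3 samples per group as labelled. The authors deposited raw counts per gene, made by featureCounts on GRCm39. Their methods name HISAT2 as aligner, whereas the submitters' processing notes list fastp 0.23, STAR 2.7, featureCounts 2.0 and DESeq2 1.40. The authors also deposited FPKM values, and these were the counts times a factor per sample and gene length (largest deviation 3.53e-06 percent over 13480 genes with over 50 counts). Symbols came from GENCODE vM21 (GRCm38), which covered 52073 identifiers. The others held 0.191% of the counts.

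The comparison used the quasi-likelihood test of edgeR 4.0.16 (R 4.3.3) after TMM normalization and filterByExpr, with p-values adjusted by Benjamini-Hochberg. The common dispersion was 0.00665, and TMM and the total counts set the CPM. A gene fell or rose at an adjusted p under 0.05, and was called when its log2 fold change was also above 1 or below -1, the study's thresholds. Alternatives included RLE, library size only, DESeq2 1.42.0, no filter, limma 3.58.1 on log2(FPKM + 1) or log2(FPKM + 0.1), replicates left out and a replicate block. The members and lists were chosen with earlier results of these data known. Named are the members, up to 4 called genes of each list or else its most expressed genes, and the 3 genes nearest to each called member with a mean of at least 1 CPM. Lists whose genes were not called are given by counts and selected genes. Scripts were tested on simulated counts for LiCl against control with 200 changed genes among 18322 tested, of which edgeR recovered 100% with 1 false call.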

Additional observations from a re-analysis of the deposited data

How the results depend on the processing

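*Pparg*, *Elf5* and *Grhl3* fell under all 18 alternatives, as did *Hopx* under 17. With the sum of pan-epithelial genes as scale, 1574 genes were called higher and 324 lower, 0 members were called, 3 members fell and 2 rose, and the log2 fold changes turned to 0.13 for *Grhl1*, 0.16 for *Grhl2*, 0.21 for *Klf5*, 0.27 for *Gata3* and 0.43 for *Elf3*. Fewer genes were called with limma on FPKM, 177 higher and 141 lower with 1 added (1 member) and 171 and 139 without filter (1 member called, 5 members lower), and 430 lower with 0.1 added. The cause was not tested, although the added constant by construction shrinks changes of low genes. The fit without LiCl 1 and LiCl 3 (4 members lower) and the fit with Y-linked expression as a covariate (5 members lower, *Elf3* at 0.048) were chosen after the data were seen. With each sample left out in turn, 477 to 556 genes were called higher and 782 to 880 lower, 2 to 3 members were called and 6 to 8 fell. *Elf3* then ranged from -0.14 to 0.051 (0.02 without control 1, 0.051 without control 2, 0.01 without LiCl 3), and the difference of *Grhl2* against *Grhl1* from -0.21 to 0.11. *Grhl1*, *Hopx* and *Trp63* had the lowest counts, which limits the precision of their values.

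The replicate numbers did not pair the samples. The correlations of the deviations from the group means were 0.00685, -0.142 and 0.118, and 2 of 6 samples correlated best with their own number. With the replicate number as a block, 478 genes were called higher and 801 lower, 2 members were called and 8 fell.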

Other observations

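In GENCODE vM21, exons of *Gata3* share 1.94% of their bases with 9230102O04Rik on the same strand, which had 95, 131 and 128 counts in control and 50, 45 and 48 after LiCl. *Gm16136*, on the opposite strand of *Grhl2* with 1.96% of its exon bases shared, had 147, 193 and 149 counts in control and 97, 86 and 74 after LiCl. In both cases all LiCl samples lay below all controls, as for the member beside it. Without the strand setting of the counting, reads of *Grhl2* and its antisense partner cannot be told apart within the bases they share.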
